A study of Mus musculus with 8 samples.

Results

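The tumour necrosis factor (TNF) receptor and ligand superfamily was followed across 8 microarrays through the 29 genes whose symbol begins with Tnfrsf or Tnfsf and a digit, 9 ligands and 20 receptors. Each was read by 1 probeset, out of 21789 probesets that name exactly 1 gene in the deposited table. The members were Tnfsf4, Tnfsf8, Tnfsf9, Tnfsf10, Tnfsf11, Tnfsf13b, Tnfsf14, Tnfsf15 and Tnfsf18 among the ligands. The receptors were Tnfrsf1a, Tnfrsf1b, Tnfrsf4, Tnfrsf8, Tnfrsf9, Tnfrsf10b, Tnfrsf11a, Tnfrsf11b, Tnfrsf12a, Tnfrsf13b, Tnfrsf13c, Tnfrsf14, Tnfrsf17, Tnfrsf18, Tnfrsf19, Tnfrsf21, Tnfrsf22, Tnfrsf23, Tnfrsf25 and Tnfrsf26. The rule reads the symbol and not the measured values. Relatives named otherwise, such as Tnf, Cd40 and Fas, were kept apart as a list of their own.

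Ligands of this superfamily are mostly membrane proteins that act as trimers on receptors of neighbouring cells, and some are also released. Receptors with a death domain can start apoptosis through adaptor proteins and caspases, whereas most others bind TRAF adaptors and switch on NF-kB, which favours survival, proliferation or cytokine production. Lymphocytes and the dendritic cells that prime them use many ligand and receptor pairs for costimulation. In the thymus, ligands on developing T cells and on innate lymphoid cells act on receptors of the epithelium, and members of the family also take part in B cell survival.

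The cells came from a culture in which T lineage development was compared with and without the transcription factor TCF-1, encoded by Tcf7. The T group (2 arrays) was Thy1+CD25+ cells from Tcf7+/+ progenitors, and the labels call its arrays biological replicates without saying whether they came from separate mice or from the same mice as the wildtype LN replicates. The deficient LN group (3 arrays, 3 mice) was Mac1-Gr1-Thy1-CD25- cells, lineage-negative by that gate, from Tcf7-/- progenitors. The wildtype LN group (3 arrays, 3 mice) was cells of the same gate from Tcf7+/+ progenitors. No T lineage cells formed from deficient progenitors, so T cells exist for 1 genotype alone. All groups began as lymphoid-primed multipotent progenitors (lineage-, Sca+, kit+, Flt3high) of mouse bone marrow, on a mixed background after about 6 backcross generations, and were kept for 4 days on OP9-DL4 cells, a bone marrow stromal line that presents a Notch ligand. Medium held, as labelled, IL1 at 1 ng/ml and Flt3L at 5 ng/ml. Live CD45.2+ cells were sorted, and 10 ng of total RNA was amplified for each array. Neither the age of the mice nor the deleted stretch of Tcf7 is in the sources used here, and the Tcf7 transcript was not analysed here because no single-gene probeset names it.

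The values are RMA summaries on the log2 scale, in which 1 unit is a doubling, and they carry no read depth, so the number of arrays limits the precision. Arrays of 1 group correlated across probesets with r between 0.9947 and 0.9969. The gate labels were set against marker lists. Between T and wildtype LN cells, 7.66% of all probesets were called higher in T cells and 10.4% lower. Of 10 T cell markers, 8 were higher in T than in wildtype LN cells and none was lower, with a mean level per array of 8.29 to 8.78 in T, 7.02 to 7.17 in deficient LN and 6.98 to 7.06 in wildtype LN cells. Of 12 dendritic cell markers, 10 were lower in T cells (mean level 6.47 to 6.57 in T, 9.08 to 9.32 in deficient LN and 9.28 to 9.54 in wildtype LN cells), as were 9 of 12 monocyte and granulocyte markers (6.65 to 6.99, against 9.02 to 9.10 and 9.01 to 9.57). The lineage-negative cells thus carried dendritic and myeloid transcripts at a high level in both genotypes, and none of these markers was called between genotypes, where 0.00459% of all probesets were. In 4 of the 12 dendritic cell markers all deficient LN arrays lay below all wildtype LN arrays, as in 6.01% of all probesets. They were Siglech (-0.54), Cd209a (-0.59), Bst2 (-0.47) and Flt3 (-0.23). Stromal markers had a mean level of 6.56 to 6.61 in T, 6.62 to 6.75 in deficient LN and 6.55 to 6.61 in wildtype LN cells. Of these 12, 0 were called between T and wildtype LN cells. Another comparison, T with deficient LN cells, had 2 lower in T, where 8.16% of all probesets were. In Sparc (0.54), Cxcl12 (0.42) and Pdgfrb (0.39) all deficient LN arrays lay above all wildtype LN arrays, as in 3.93% of all probesets. The other stromal markers overlapped between genotypes, and none was called. Any part of stromal RNA in genotype differences of members was not tested. Of 8 mast cell and basophil markers, Cpa3 was higher in T than in wildtype LN cells (2.39), 1 was lower and 6 were not called, at a mean level of 6.84 to 6.96 in T, 6.48 to 6.95 in deficient LN and 6.60 to 6.86 in wildtype LN cells. Every difference of a family member between T and LN cells lies beside these marker differences, whose part in it was not tested. In RNA from a whole sorted population, fewer cells of a type and less RNA per cell cannot be told apart.

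Set against wildtype LN cells, T cells differed in 11 of the 29 members, or 37.9%, at an adjusted p under 0.05 (limma, Benjamini-Hochberg over all 21789 probesets), where 18.0% of all probesets were called. Of the 29 members, 8 were higher in T cells (27.6%, where 7.66% of all probesets were called higher), and they comprised 3 ligands and 5 receptors. Another 3 were lower (10.3%, where 10.4% were called lower), 1 ligand and 2 receptors. The median log2 difference was 0.07 over the members and 0.04 over all probesets, and the median absolute difference was 0.20 over the members and 0.13 over all probesets. In 17 of the 29 members the T arrays all lay on one side of the wildtype LN arrays, which 47.8% of all probesets also did. The members called higher were Tnfsf10, Tnfrsf18, Tnfrsf10b, Tnfrsf21, Tnfsf11, Tnfsf14, Tnfrsf23 and Tnfrsf12a, and those called lower were Tnfsf9, Tnfrsf1a and Tnfrsf13c. Tnfsf10, Tnfrsf18 and Tnfsf9 were called in each of the 16 alternative settings, and the other 8 were each lost in at least 1, as given beside them. Without T replicate 2, 5 members were called, and without T replicate 1, 6 were. Leaving out wildtype LN replicate 1, 2 or 3 left 7 members in each case. Over all probesets these settings left 3356, 3125 and 3004 called, against 3928 with all arrays. The count over all probesets also fell with either T replicate left out.

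**Figure D1:**
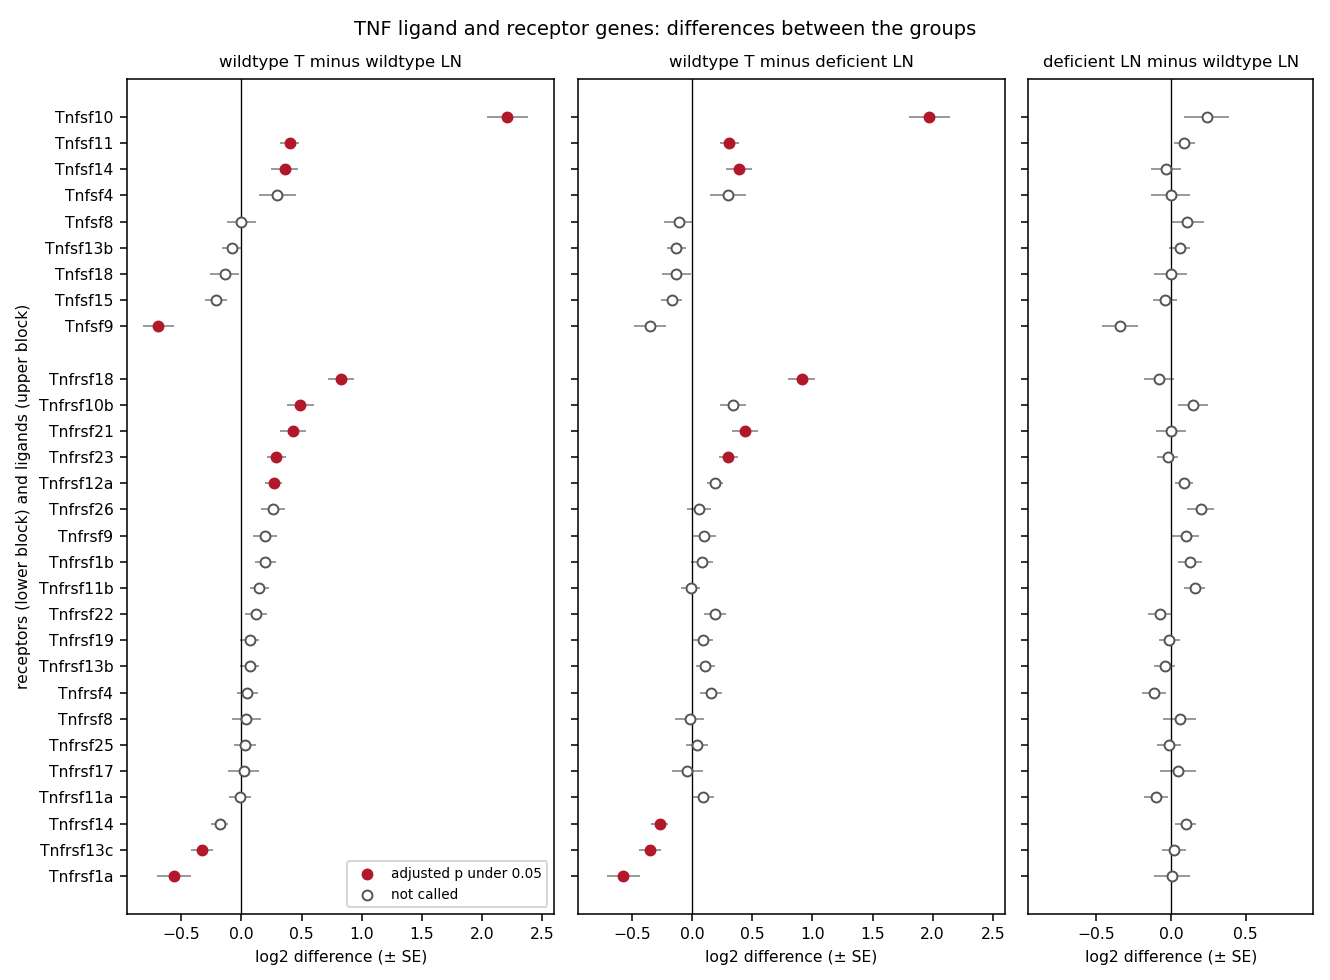
Log2 difference with its standard error for each of the 29 members (rows), T minus wildtype LN, T minus deficient LN and deficient minus wildtype LN cells; the x axis of each panel is in log2 units, and filled points have an adjusted p under 0.05. Tnfsf10 stands at 2.21 and 1.97 in the T comparisons, and no member is called between genotypes.

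Tnfsf10 encodes TRAIL, a ligand that starts apoptosis through death-domain receptors and that T cells and natural killer cells can use against target cells. It had 9.43 and 8.70 in T cells, 7.22, 7.07 and 6.99 in deficient LN cells and 6.82, 6.80 and 6.93 in wildtype LN cells (log2 levels). Both T arrays lay above all LN arrays, the T arrays differed from each other by more than the arrays of either LN group did, and every deficient array lay above every wildtype LN array. The T minus wildtype LN difference was 2.21 (SE 0.17, 95% interval 1.83 to 2.59, limma adjusted p = 7.94e-06), a 4.63-fold higher level. Against deficient LN cells it was 1.97 (SE 0.17, adjusted p = 2.35e-05), or 3.92-fold. The genotype difference of 0.24 was not called (SE 0.15, 95% interval -0.10 to 0.58, adjusted p = 0.999). T replicate 1, the higher in Tnfsf10, was also the higher in Cd3g, which encodes part of the antigen receptor, with 11.52 and 10.21 in the T arrays. Cd3g had 4.99, 5.16 and 5.08 in deficient LN and 4.86, 4.85 and 4.72 in wildtype LN cells. The other T cell markers were also higher in T replicate 1, except Cd5 (7.84 and 8.10), and a link with Tnfsf10 was not tested. Of 12 natural killer and innate lymphoid markers, 4 were also higher in T than in wildtype LN cells, where 7.66% of all probesets were called higher. They were the granzyme genes Gzma (3.24) and Gzmb (2.33), Nkg7 (1.06) and Il2rb (0.51), and of these only Gzmb was higher in T replicate 2 (9.09 and 9.26). The receptor gene Klrd1 was lower (-5.71), where 10.4% of all probesets were called lower, and 7 markers were not called. Their mean level was 7.17 to 7.29 in T, 6.97 to 7.09 in deficient LN and 7.06 to 7.10 in wildtype LN cells, and their part in the Tnfsf10 difference was not tested. The Tnfsf10 difference ranged from 1.84 to 2.58 over the alternatives, its lowest without T replicate 1.

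Among receptors of TRAIL, Tnfrsf10b encodes the receptor that passes its death signal in the mouse. It had 6.66 and 6.95 in T cells, 6.41, 6.59 and 6.41 in deficient LN cells and 6.34, 6.43 and 6.19 in wildtype LN cells. In T cells both arrays exceeded all LN arrays, by a small margin over deficient LN replicate 2. T cells were higher than wildtype LN cells by 0.49 (SE 0.11, limma adjusted p = 0.0104), and the difference from deficient LN cells, 0.34, was not called (SE 0.11, adjusted p = 0.0668) except without T replicate 1 (0.48, 0.0361). Without T replicate 2 the difference from wildtype LN cells was 0.34 and no longer called (adjusted p = 0.108, the largest of the alternatives, whose smallest was 0.00727).

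Tnfrsf22, Tnfrsf23 and Tnfrsf26 form a cluster of neighbouring genes on mouse chromosome 7, and the mouse proteins of Tnfrsf22 and Tnfrsf23 are decoy receptors that bind TRAIL without a death domain. Tnfrsf23 had 7.06 and 7.20 in T cells, 6.81, 6.80 and 6.86 in deficient LN cells and 6.88, 6.74 and 6.90 in wildtype LN cells, so the T arrays lay above all LN arrays. The difference was 0.29 from wildtype LN cells (SE 0.08, limma adjusted p = 0.0342) and 0.30 from deficient LN cells (SE 0.08, adjusted p = 0.0320). Tnfrsf26 had 9.03 and 9.29 in T cells, 9.03, 9.07 and 9.19 in deficient LN cells and 8.97, 8.79 and 8.93 in wildtype LN cells. Its T and deficient LN arrays overlapped, and both groups lay above the wildtype LN arrays. T minus wildtype LN was 0.26 and not called (SE 0.10, adjusted p = 0.104), but it was called after a second quantile normalization (0.32, adjusted p = 0.0299) and without T replicate 1 (0.39, adjusted p = 0.0484). Tnfrsf22 differed by 0.12 and was not called (adjusted p = 0.409). Tnfrsf23 lost its call against wildtype LN cells without T replicate 2 (0.22, adjusted p = 0.222), T replicate 1 (0.36, 0.0514), wildtype LN replicate 1 (0.31, 0.0596) or 2 (0.24, 0.111), or deficient LN replicate 3 (0.29, 0.0502), and also with a replicate block (0.31, 0.0537), only the groups compared (0.29, 0.0577) or all probesets tested (0.29, 0.0652), and its adjusted p ranged upwards from 0.0206 over the alternatives. These genes are close copies, probe sequences were not used here, and sharing of signal between their probesets was not tested.

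Tnfrsf18 encodes GITR, a costimulatory receptor of T cells that is also high on regulatory T cells. It had 8.63 and 8.53 in T cells, 7.45, 7.77 and 7.79 in deficient LN cells and 7.69, 7.71 and 7.84 in wildtype LN cells. The T arrays stood clear of all LN arrays, and the LN groups overlapped. T cells were higher than wildtype LN cells by 0.83 (SE 0.11, limma adjusted p = 0.000362), a 1.78-fold difference that ranged from 0.78 to 0.90 over the alternatives. They were higher than deficient LN cells by 0.91 (SE 0.11, adjusted p = 0.000236). Its ligand Tnfsf18 had 5.16 and 4.88 in T cells, 5.17, 5.15 and 5.14 in deficient LN cells and 5.31, 5.25 and 4.92 in wildtype LN cells, and was not called (-0.14, adjusted p = 0.505).

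Tnfrsf4, the gene of the costimulatory receptor OX40, is the next protein-coding gene to Tnfrsf18 on chromosome 4 in the RefSeq annotation. It had 7.21 and 7.08 in T cells, 6.94, 7.09 and 6.94 in deficient LN cells and 7.21, 7.10 and 6.98 in wildtype LN cells, with all groups overlapping. The T minus wildtype LN difference of Tnfrsf4 was 0.05 (adjusted p = 0.779) beside the 0.83 of Tnfrsf18, and the gap between these neighbours was not tested. Promoter windows of Tnfsf10 and Tnfrsf18, the ligand and the receptor with the highest differences in T cells, and of Tnfrsf4 as the neighbour without a call, are shown because TCF-1 binds DNA at sites that contain CTTTG. Each window runs from 250 bases before to 50 after the start of the gene on the strand of the gene, all plus strand, from RefSeq on GRCm38.p6, and capitals mark CTTTG or its reverse complement CAAAG.
Tnfsf10, chr3:27316827-27317126: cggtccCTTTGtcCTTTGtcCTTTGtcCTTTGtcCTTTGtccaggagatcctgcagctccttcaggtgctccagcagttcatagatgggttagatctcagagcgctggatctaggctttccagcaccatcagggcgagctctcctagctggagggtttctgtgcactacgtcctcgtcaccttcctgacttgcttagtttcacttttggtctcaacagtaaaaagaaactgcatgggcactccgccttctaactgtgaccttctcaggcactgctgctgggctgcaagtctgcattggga
Tnfrsf18, chr4:156026072-156026371: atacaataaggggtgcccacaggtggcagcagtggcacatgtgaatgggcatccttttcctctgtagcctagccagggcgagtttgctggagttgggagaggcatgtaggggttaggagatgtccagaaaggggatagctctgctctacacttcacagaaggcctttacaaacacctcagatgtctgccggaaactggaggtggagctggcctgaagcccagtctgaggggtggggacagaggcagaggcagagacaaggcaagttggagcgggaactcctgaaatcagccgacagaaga
Tnfrsf4, chr4:156013445-156013744: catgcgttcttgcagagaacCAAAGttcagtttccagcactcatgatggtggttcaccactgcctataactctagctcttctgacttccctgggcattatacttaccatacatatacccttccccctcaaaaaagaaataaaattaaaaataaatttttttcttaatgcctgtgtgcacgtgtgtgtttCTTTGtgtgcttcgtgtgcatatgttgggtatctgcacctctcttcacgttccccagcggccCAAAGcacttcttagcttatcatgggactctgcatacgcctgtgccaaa

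The Tnfsf10 window held CTTTG 5 times, all on the gene's own strand. All 5 form a single repeat near the upstream end of the window, with only the letters tc between them. At least 5 on both strands together were held by 0.286% of 32851 RefSeq promoter windows of this length. That share counts matches and does not tell such a repeat from scattered matches. The Tnfrsf4 window held it 3 times (5.54% of windows held at least 3) and the Tnfrsf18 window 0 times. Among all windows 53.9% held CTTTG at least once, so the core alone is common. None of the 3 windows held, on either strand, a longer TCF/LEF word (CTTTG followed by AA, AT, TA or TT, which 16.9% of windows held), the core TGGGAA of the Notch partner RBPJ (25.6%) or the NF-kB consensus (4.51%). Of the 29 members, 23 had a window in the table, and 12 of those genes held CTTTG. Counted by window, as the 53.9% is, 13 of the 27 windows of these genes held it. These are matches of letters and do not show binding.

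Tnfsf9 encodes a costimulatory ligand of antigen-presenting cells, whose receptor Tnfrsf9 appears on activated T cells. Tnfsf9 had 5.98 and 6.46 in T cells, 6.58, 6.59 and 6.54 in deficient LN cells and 6.79, 6.84 and 7.09 in wildtype LN cells. The T arrays were lowest, the deficient LN arrays lay between and the wildtype LN arrays were highest, with no overlap between any pair of groups. T cells were lower than wildtype LN cells by a log2 difference of -0.69 (SE 0.13, limma adjusted p = 0.00447), with -0.93 to -0.45 over the alternatives, and the value nearest 0 came without T replicate 1 (adjusted p = 0.0411). Set against deficient LN cells the difference was -0.35 and not called (SE 0.13, adjusted p = 0.117), though it was without T replicate 2 (-0.59, adjusted p = 0.0124). Tnfrsf9 had 6.73 and 6.47 in T cells, 6.51, 6.44 and 6.56 in deficient LN cells and 6.26, 6.46 and 6.49 in wildtype LN cells, which overlapped, and was not called (0.20, adjusted p = 0.227). Antigen presentation genes moved beside it, with H2-Aa at 5.60 and 6.40 in T cells, 11.40, 11.24 and 11.30 in deficient LN cells and 11.25, 11.28 and 11.59 in wildtype LN cells, and the part of the 12 dendritic cell markers above in the Tnfsf9 difference was not tested.

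Tnfsf14 encodes LIGHT, a ligand of lymphocytes that binds the herpesvirus entry mediator encoded by Tnfrsf14 and the lymphotoxin beta receptor. It had 7.02 and 7.36 in T cells, 6.72, 6.80 and 6.88 in deficient LN cells and 6.77, 6.97 and 6.76 in wildtype LN cells. Both T arrays exceeded the LN arrays, with T replicate 1 close to wildtype LN replicate 2. The difference from wildtype LN cells was 0.36 (SE 0.11, limma adjusted p = 0.0485) and that from deficient LN cells 0.39 (SE 0.11, adjusted p = 0.0397). The first of these calls was lost in 10 of 16 alternatives (adjusted p from 0.0147 to 0.359). They included leaving out T replicate 2 (0.19), wildtype LN replicate 1 (0.33, adjusted p = 0.128) or 3 (0.32, 0.139), and deficient LN replicate 1 (0.36, 0.0545), 2 (0.36, 0.0652) or 3 (0.36, 0.0608).

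Its receptor Tnfrsf14 had 7.05 and 7.05 in T cells, 7.40, 7.32 and 7.26 in deficient LN cells and 7.26, 7.20 and 7.24 in wildtype LN cells. The T arrays lay below all LN arrays. T cells were lower than deficient LN cells by a log2 difference of -0.27 (SE 0.07, limma adjusted p = 0.0320), while the difference of -0.18 from wildtype LN cells was not called (SE 0.07, adjusted p = 0.137). The call against deficient LN cells was lost in 9 of 16 alternatives. They included only the groups compared (-0.27, adjusted p = 0.0808), all probesets tested (-0.27, 0.0573), a replicate block (-0.29, 0.0568) and a trended robust fit (-0.27, 0.0502). Among protein-coding genes Tnfsf9 and Tnfsf14 are separated on chromosome 17 by Cd70 alone, and Cd70 was not called. The other costimulatory members, Tnfsf4, Tnfsf8, Tnfsf15, Tnfrsf8 and Tnfrsf25, were called in no comparison.

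**Figure D2:**
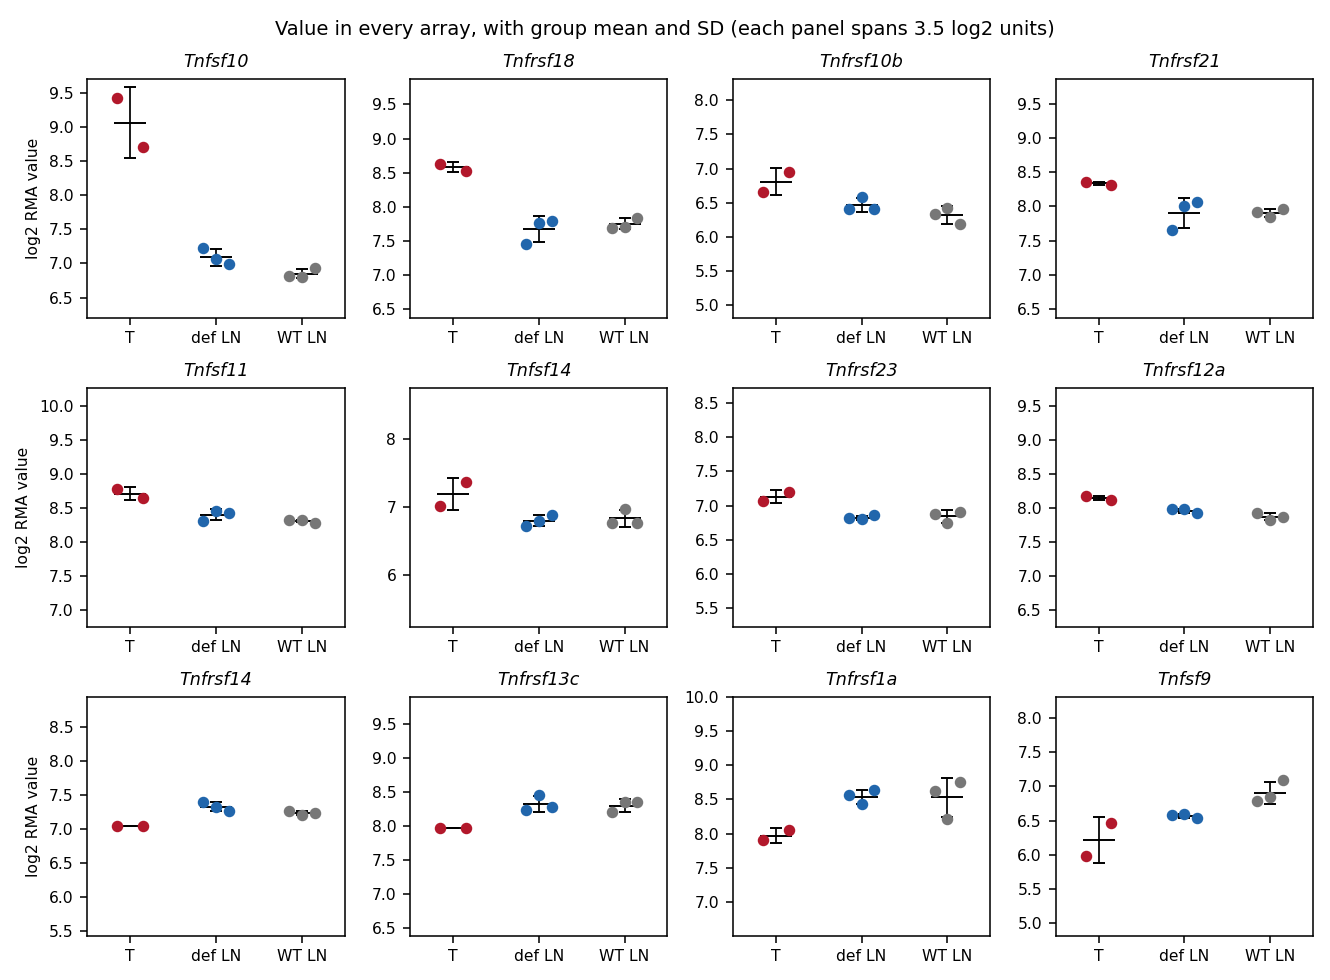
Log2 level (y axis) of each called member on every array, with T, deficient LN and wildtype LN arrays from left to right in each panel; points are arrays, bars are group means with SD, and all panels span the same number of log2 units. The Tnfsf10 panel shows T arrays at 9.43 and 8.70 and all LN arrays between 6.80 and 7.22.

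Tnfrsf1a encodes the death-domain receptor for TNF that most cell types carry. It had 7.90 and 8.05 in T cells, 8.56, 8.44 and 8.64 in deficient LN cells and 8.62, 8.22 and 8.76 in wildtype LN cells. All LN arrays lay above the T arrays, wildtype LN replicate 2 nearest to them. T cells were lower than wildtype LN cells by a log2 difference of -0.56 (SE 0.14, limma adjusted p = 0.0178) and than deficient LN cells by -0.57 (SE 0.14, adjusted p = 0.0199). The first call was lost without T replicate 1 (-0.48, adjusted p = 0.124, the largest of alternatives that began at 0.00144), without wildtype LN replicate 1 (-0.51, 0.0577) or 3 (-0.45, 0.0572), and with all probesets tested. Tnfrsf1b, the other TNF receptor, which has no death domain, had 7.79 and 7.63 in T cells, 7.50, 7.72 and 7.69 in deficient LN cells and 7.48, 7.49 and 7.55 in wildtype LN cells, and was not called (0.20, adjusted p = 0.158).

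Tnfrsf21 encodes a further death-domain receptor, DR6. It had 8.36 and 8.32 in T cells, 7.65, 8.0 and 8.06 in deficient LN cells and 7.92, 7.84 and 7.96 in wildtype LN cells. Again the T arrays were above all LN arrays, and the deficient LN arrays were the most spread. The difference was 0.43 from wildtype LN cells (SE 0.11, limma adjusted p = 0.0226) and 0.44 from deficient LN cells (SE 0.11, adjusted p = 0.0265). The first difference was 0.40 to 0.51 over the alternatives and the second 0.31 to 0.52, but the first call was lost without T replicate 1 (0.42, adjusted p = 0.111) or 2 (0.45, 0.0832), without wildtype LN replicate 1 (0.44, 0.0532) or 2 (0.40, 0.0731), and with all probesets tested (0.43, 0.0661), against a smallest adjusted p of 0.00315.

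Tnfsf11 encodes RANKL, the ligand that drives osteoclast formation and, in the thymus, the maturation of medullary epithelium. It had 8.78 and 8.64 in T cells, 8.31, 8.46 and 8.42 in deficient LN cells and 8.32, 8.32 and 8.28 in wildtype LN cells, with both T arrays above all LN arrays. The difference was 0.40 from wildtype LN cells (SE 0.08, limma adjusted p = 0.00506) and 0.31 from deficient LN cells (SE 0.08, adjusted p = 0.0248). Without T replicate 1 the first was 0.33 and no longer called (adjusted p = 0.0591, the largest of the alternatives, whose smallest was 0.00246). Its signalling receptor Tnfrsf11a (RANK) had 7.0 and 6.73 in T cells, 6.76, 6.76 and 6.81 in deficient LN cells and 6.97, 6.84 and 6.82 in wildtype LN cells, and was not called (-0.01, adjusted p = 0.946). Its soluble decoy Tnfrsf11b (osteoprotegerin) had 6.16 and 6.01 in T cells, 6.07, 6.07 and 6.15 in deficient LN cells and 5.94, 5.98 and 5.89 in wildtype LN cells, with a T minus wildtype LN difference of 0.15 that was not called (adjusted p = 0.246).

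Tnfrsf13c encodes the BAFF receptor, which mature B cells need to survive. It had 7.97 and 7.97 in T cells, 8.23, 8.45 and 8.28 in deficient LN cells and 8.20, 8.35 and 8.35 in wildtype LN cells. The T arrays were equal to 2 decimals and lay below all LN arrays. T cells were lower than wildtype LN cells by a log2 difference of -0.33 (SE 0.09, limma adjusted p = 0.0282) and than deficient LN cells by -0.35 (SE 0.09, adjusted p = 0.0256). The first call was lost without T replicate 1 (-0.33, adjusted p = 0.116) or 2 (-0.32, 0.112), without wildtype LN replicate 2 (-0.30, 0.0875) or 3 (-0.30, 0.0897), after a second quantile normalization (-0.25, 0.0815) and with all probesets tested (-0.33, 0.0627), where the smallest adjusted p was 0.0180. Of 9 B cell markers measured, 2 were lower in T than in wildtype LN cells, where 10.4% of all probesets were called lower, and 7 were not called. Mean levels of these markers were 6.38 to 6.60 in T, 6.63 to 6.91 in deficient LN and 6.61 to 7.05 in wildtype LN cells. Their part in the Tnfrsf13c difference was not tested. The BAFF ligand gene Tnfsf13b (5.83 and 5.94 in T cells, 5.92, 6.10 and 6.04 in deficient LN cells, 5.97, 5.91 and 6.00 in wildtype LN cells) and the other B cell receptors of the family, Tnfrsf13b and Tnfrsf17, were called in no comparison.

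Tnfrsf12a, the TWEAK receptor of injured and growing tissues, had 8.17 and 8.12 in T cells, 7.98, 7.98 and 7.92 in deficient LN cells and 7.93, 7.83 and 7.86 in wildtype LN cells. The T arrays lay above all LN arrays. The difference from wildtype LN cells was 0.27 (SE 0.07, limma adjusted p = 0.0241), and that from deficient LN cells, 0.19, was not called (adjusted p = 0.128) except after a second quantile normalization (0.23, 0.0471). The call was lost without T replicate 1 (0.25, adjusted p = 0.137) or 2 (0.29, 0.0803), without wildtype LN replicate 2 (0.25, 0.0775) or 3 (0.27, 0.0720), and with a replicate block (0.26, 0.0650), where the smallest adjusted p was 0.00658. The 15 members not described in full, Tnfrsf19 (TROY) among them, had T minus wildtype LN differences from -0.21 for Tnfsf15 to 0.30 for Tnfsf4, with adjusted p from 0.158 to 0.992.

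T minus deficient LN shares its T arrays with the comparison above, and the gap between the comparisons is the genotype difference itself. Of the 29 members, 9 were called, or 31.0%, where 14.1% of all probesets were. In 14 the arrays of the groups did not overlap, as in 40.7% of all probesets. Tnfsf10, Tnfrsf18, Tnfrsf21, Tnfsf11, Tnfsf14 and Tnfrsf23 were higher in T cells (5.98% of all probesets were called higher), and Tnfrsf1a, Tnfrsf13c and Tnfrsf14 were lower (8.16% were called lower). The median log2 difference was 0.09 over the members and 0.04 over all probesets. Tnfsf10 and Tnfrsf18 were called in all 16 alternatives. Without T replicate 1 the calls on Tnfrsf1a (-0.49, limma adjusted p = 0.133), Tnfrsf21 (0.42, 0.126), Tnfsf11 (0.24, 0.196), Tnfrsf13c (-0.35, 0.110), Tnfrsf23 (0.37, 0.0503) and Tnfrsf14 (-0.27, 0.133) were lost. Without T replicate 2 those on Tnfrsf21 (0.46, 0.0958), Tnfsf14 (0.22, 0.306), Tnfrsf13c (-0.35, 0.110), Tnfrsf23 (0.23, 0.215) and Tnfrsf14 (-0.27, 0.129) were lost. Leaving out single deficient LN arrays left 4 to 5 members called. Over all probesets 2267, 3083 and 2615 were called without deficient LN replicate 1, 2 or 3, against 3081 with all arrays. Without replicate 1 the lost calls were Tnfrsf1a (-0.56, 0.0569), Tnfsf11 (0.27, 0.0762), Tnfsf14 (0.35, 0.116), Tnfrsf23 (0.30, 0.0785) and Tnfrsf14 (-0.24, 0.0920). Without replicate 2 the lost calls were Tnfsf14 (0.39, 0.0757), Tnfrsf13c (-0.28, 0.0578), Tnfrsf23 (0.29, 0.0635) and Tnfrsf14 (-0.28, 0.0514), and without replicate 3 they were Tnfrsf1a (-0.52, 0.0602), Tnfsf11 (0.32, 0.0520), Tnfsf14 (0.43, 0.0528) and Tnfrsf23 (0.32, 0.0590). Leaving out wildtype LN arrays, which are not in this difference but share its error estimate, cost the call on Tnfsf14 without replicate 1 (0.39, 0.0562) or 3 (0.39, 0.0541) and on Tnfrsf14 without replicate 3 (-0.27, 0.0519).

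Between genotypes of the same gate, deficient minus wildtype LN, 0 of the 29 members were called, where 0.00459% of all probesets, 1 of 21789, were. At an unadjusted p under 0.05 the count was 3 of 29, where 4.92% of all probesets passed. That count was 0 without wildtype LN replicate 3, 1 without deficient LN replicate 2 or 3 or with a replicate block, and 2 to 4 in the other alternatives. With a trended and robust limma fit and with limma array weights the adjusted count was also 0. The lowest of the 95% intervals for any member reached -0.60 (Tnfsf9) and the highest 0.58 (Tnfsf10), so differences of that size were within the limits of 3 arrays a group. The 3 genes were Tnfsf9 (-0.34, SE 0.12, limma adjusted p = 0.881), Tnfrsf11b (0.16, SE 0.07, adjusted p = 0.991) and Tnfrsf26 (0.20, SE 0.09, adjusted p = 0.996). Deficient and wildtype LN arrays did not overlap in 6 of the 29 members, or 20.7%, where 9.95% of all probesets did not. Tnfsf10, Tnfrsf11b, Tnfrsf14 and Tnfrsf26 had all deficient arrays above all wildtype LN arrays (4 of 29, where 3.93% of all probesets did), and Tnfsf9 and Tnfrsf11a had them below (2 of 29, where 6.01% did). The median absolute difference was 0.07 over the members and 0.06 over all probesets.

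**Figure D3:**
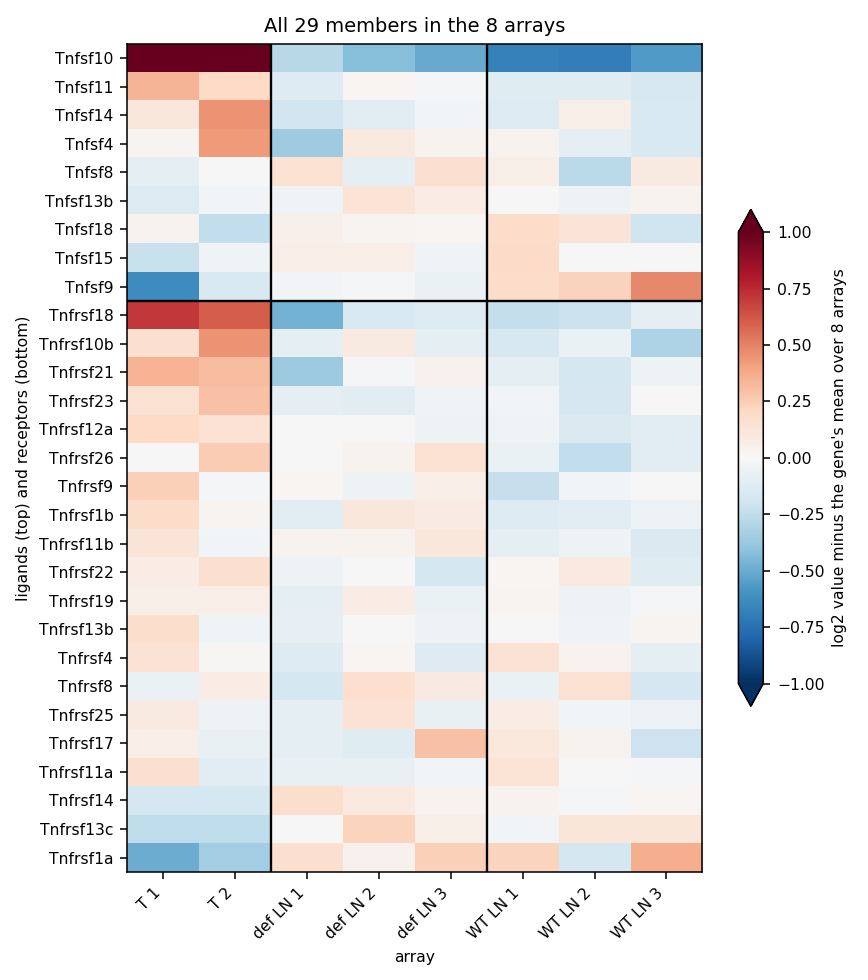
Log2 level of each member (rows) on each of the 8 arrays (columns, T, deficient LN and wildtype LN from left to right), as the difference from that member's mean over all 8 arrays; the colour bar gives log2 units and saturates at 1. The Tnfsf10 and Tnfrsf18 rows are high in both T arrays, and the Tnfsf9 row is low.

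Around the family, 3 lists of related genes were counted in T minus wildtype LN, where 7.66% of all probesets were called higher and 10.4% lower. Of 15 superfamily members under other symbols, all measured, 3 were higher, 1 was lower and 11 were not called, with a median of 0.10. Tnf, the founding cytokine, had 8.28 and 8.38 in T cells, 7.50, 7.62 and 7.48 in deficient LN cells and 7.34, 7.41 and 7.44 in wildtype LN cells, clear of all LN arrays in T cells. Its difference was 0.93 (limma adjusted p = 1.61e-05), and those of the lymphotoxin genes were 0.86 for Ltb (adjusted p = 0.000641) and 0.74 for Lta (adjusted p = 0.00769). The Lta call was lost without T replicate 1 (0.56, adjusted p = 0.0816). Ltbr, the lymphotoxin beta receptor, was lower at -0.31 (adjusted p = 0.0142), a call lost without T replicate 1 (-0.33, 0.0613) or 2 (-0.30, 0.0847) or wildtype LN replicate 2 (-0.28, 0.0513). Between genotypes 0 of the 15 were called, where 0.00459% of all probesets were. In Fasl (0.63), Cd27 (0.27), Edar (0.16) and Tnf (0.13) all deficient LN arrays lay above all wildtype LN arrays, as in 3.93% of all probesets. The others of this list overlapped between genotypes.

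Of 18 genes of adaptors and death signalling, 16 were measured, of which 3 were higher, 4 lower and 9 not called in T minus wildtype LN. Birc3, an inhibitor of apoptosis that binds TRAF proteins, had 8.24 and 8.47 in T cells, 9.39, 9.28 and 9.05 in deficient LN cells and 9.08, 9.38 and 9.51 in wildtype LN cells. Both T arrays were below all LN arrays, with a difference of -0.96 (limma adjusted p = 0.000683). Traf5, an adaptor of costimulatory receptors, was lower at -0.55 (adjusted p = 0.0175), as was Traf3ip2, an adaptor of interleukin receptors, at -0.36 (adjusted p = 0.0197), and Traf3ip1, a component of cilia, was higher at 0.48 (adjusted p = 0.00168). Without T replicate 1, 2 were higher and 3 lower, and without T replicate 2, 1 was higher and 1 lower. Without wildtype LN replicate 1 or 3, 2 were higher and 2 lower, and without wildtype LN replicate 2, 2 were higher and 3 lower. The Traf5 call was lost without T replicate 2 (-0.28, adjusted p = 0.151) or wildtype LN replicate 1 (-0.52, 0.0525) or with all probesets tested (-0.55, 0.0608), and the Traf3ip2 call without T replicate 2 (-0.31, 0.132) or wildtype LN replicate 1 (-0.33, 0.0642) or 3 (-0.33, 0.0675), with a replicate block (-0.35, 0.0586) or with all probesets tested (-0.36, 0.05).

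Of 20 NF-kB pathway genes, 18 were measured, of which 1 was higher, 6 were lower and 11 were not called, with a median of -0.16. Nfkbia, an inhibitor that NF-kB itself induces, had 7.23 and 7.27 in T cells, 7.90, 8.01 and 7.78 in deficient LN cells and 8.06, 7.98 and 8.20 in wildtype LN cells. The T arrays lay below all LN arrays (-0.83, limma adjusted p = 0.000131). Rel, an NF-kB subunit, was lower at -0.64 (adjusted p = 0.00368), as was Bcl3, a nuclear partner of NF-kB, at -0.60 (adjusted p = 0.00466). Cyld, a deubiquitinase that restrains the pathway, was also lower at -0.44 (adjusted p = 0.0159). Tnfaip3, the feedback inhibitor A20, was the 1 called higher (0.34, adjusted p = 0.0103), chosen for mention after its value was seen. Inhibitors and activators of the pathway are thus both among the lower genes. Without T replicate 1, 4 were lower and 0 higher, and without T replicate 2, 3 were lower and 0 higher. Without wildtype LN replicate 3, 3 were lower and 1 higher. The Bcl3 call was lost without T replicate 2 (-0.44, adjusted p = 0.0537), the Cyld call without T replicate 2 (-0.30, 0.153) or wildtype LN replicate 3 (-0.42, 0.0516) or with all probesets tested (-0.44, 0.05), and the Tnfaip3 call without T replicate 1 (0.33, 0.0625) or 2 (0.35, 0.0526). Between genotypes 0 of the 16 adaptor and death signalling genes and 0 of the 18 NF-kB pathway genes were called, where 0.00459% of all probesets were.

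**Figure D4:**
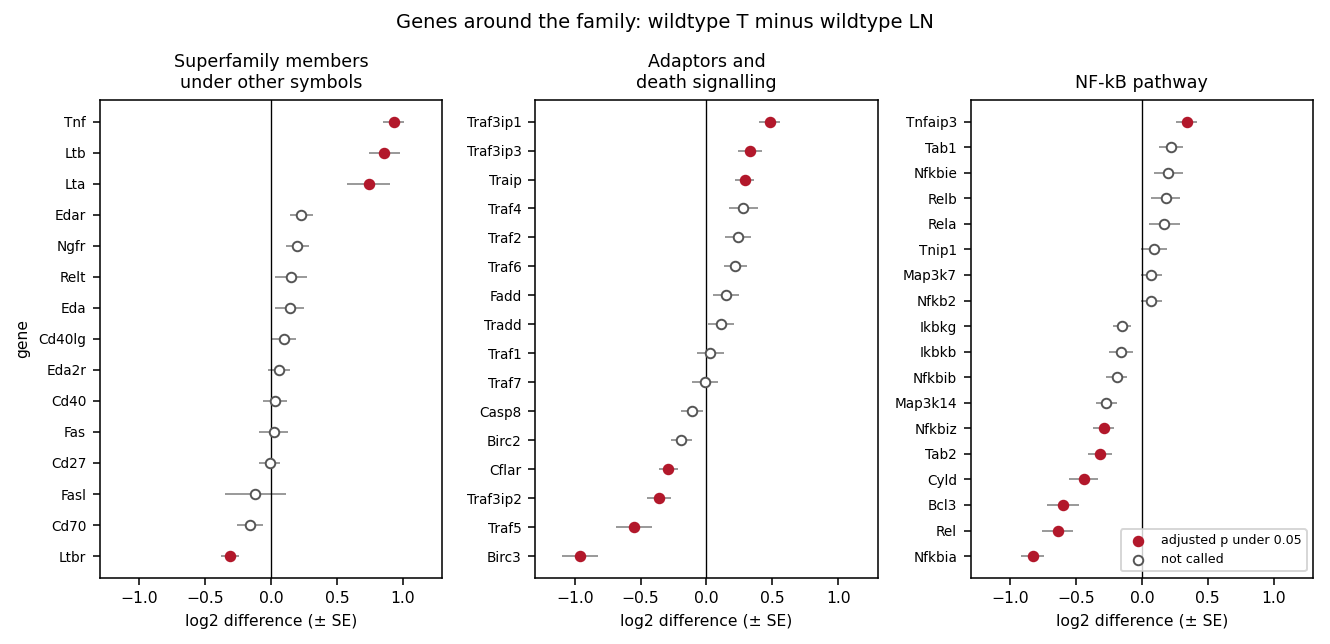
Log2 difference with its standard error (x axis), T minus wildtype LN, for the measured genes (y axis) of the 3 lists around the family; filled points have an adjusted p under 0.05. Tnf, Ltb and Lta stand highest in the left panel, and 6 of 18 NF-kB pathway genes are called lower.

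**Figure D5:**
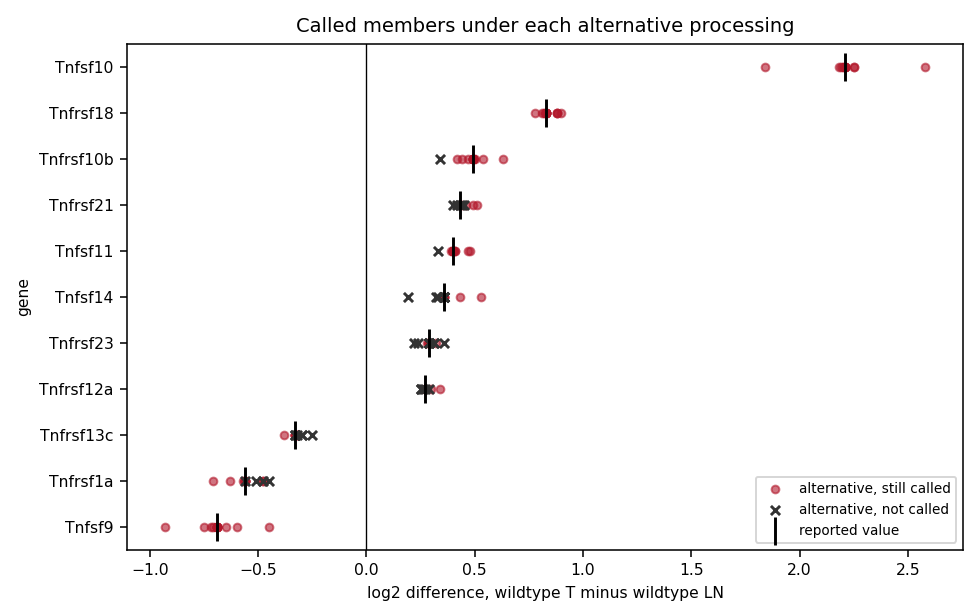
Log2 difference, T minus wildtype LN (x axis), of the 11 called members (rows) under each alternative processing; bars are the reported values, round points are alternatives in which the member was called and crosses those in which it was not. Tnfsf10, Tnfrsf18 and Tnfsf9 have no cross, and no member crosses 0.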

How the data were processed

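Microarray values of sorted mouse cells were deposited by the authors as a table of log2 levels, 35399 probesets by 8 arrays, made with Partek 6.5 and RMA per the submitters' processing notes; the log2 scale was also checked on the values. The genome build of the array annotation is not given in the sources used here. Probesets naming no gene (11989) or several (1621) were left out, among them 1 that lists several genes with a family member among them. No filter on low values was applied to the remaining 21789. All 8 arrays were fitted as 3 groups with limma 3.58.1 (lmFit, eBayes, two-sided) in R 4.3.3, with 5 residual degrees of freedom, and Benjamini-Hochberg adjustment over all of them; a call is an adjusted p under 0.05. The fit was tested on simulated data.

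The members and lists were chosen with earlier results of these data known. Members called in any comparison or among the 5 largest absolute differences of one were described in full, and up to 4 called genes of each list were named. Alternatives were the 2 groups alone, median centring, a second quantile normalization, leaving out the dimmest 40%, all probesets, a trended robust fit, array weights, a replicate block and each array left out. All arrays are labelled as biological replicates. Since the labels do not tie the T replicates to mice, p-values of T comparisons measure the spread between these samples, and any mice shared with wildtype LN replicates are not modelled. RefSeq (GRCm38.p6) symbols matched 99.6% of the probesets.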

Additional observations from a re-analysis of the deposited data

How the results depend on the processing

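No member changed direction among those called, under any of the 16 alternatives. Of the 29 members, 11 were called in T minus wildtype LN cells, 6 with all probesets tested, and 5 to 10 with 1 array left out. In T minus deficient LN cells 9 members were called, 3 with only those groups fitted, 2 with all probesets, and 4 to 9 with 1 LN array left out. Over all probesets the counts were 3081, 2509 with only those groups and 2552 of 35399 with all probesets. They were 2267 to 3083 with 1 LN array left out. The genotype count of 0 members held in every alternative, and the count over all probesets, 1, was 2 with only those groups, 0 after centring, after a second quantile normalization or with all probesets, 11 with a trended robust fit, 6 with array weights, and 0 to 12 with 1 array left out. Replicate numbers were not taken as pairs, since the labels do not tie the T replicates to mice. Deviations from group means of same-numbered arrays had r from -0.25 to 0.16 over 7 pairs. The 2 of these pairs that joined T and wildtype LN arrays had r of 0.16 and 0.12. With 2 T arrays the deviations of the T arrays mirror each other, so these r values cannot show whether mice were shared. With a replicate block 9, 6 and 0 members were called, and 3467, 2680 and 0 probesets, in T minus wildtype LN, T minus deficient LN and deficient minus wildtype LN. The causes were not tested. Without the dimmest 40% of probesets 19 of 29 members remained, so the others have no value there. The table holds no background signal, so no member can be called absent.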

Other observations

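The probeset that lists several genes, with a family member among them, is therefore given no gene name. It had 6.26 and 6.22 in T cells, 6.40, 6.61 and 6.36 in deficient LN cells and 6.14, 6.44 and 6.44 in wildtype LN cells on the log2 scale. The T arrays lay within the range of the wildtype LN arrays and below the deficient LN arrays.

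On chromosome 4, which carries 9 of the 29 members in the RefSeq annotation, 3 pairs of members are adjacent protein-coding genes. Their T minus wildtype LN log2 differences were 0.83 for Tnfrsf18 and 0.05 for Tnfrsf4, 0.20 for Tnfrsf1b and 0.04 for Tnfrsf8, and -0.21 for Tnfsf15 and 0.00 for Tnfsf8. The difference within each pair was not tested.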
